A study of Rattus norvegicus with 8 samples.

Results

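The sites described here are 3′ ends of rat hypothalamic RNA to which the study's annotation gave no gene symbol. They were chosen by a dash in the symbol column of the 8 per-library files, and they make up 34043 of the 98356 sites (34.6%). They are called unassigned sites, and the other 64313 sites, which carry a symbol, are called gene sites. Adult male Long-Evans rats breathed the vapor of cannabis plant matter with 7.8% THC and 0.5% CBD for 10 min, or the air of an unfilled vaporizer, and the hypothalamus was taken 1 hr later. Each group has 4 libraries, which the labels number 1, 2, 3 and 4 for the air controls and 1, 2, 3 and 5 for the cannabis-exposed rats. The labels name no transgene or deletion for either group. The comparison asks whether a short exposure to cannabis altered the use of RNA 3′ ends in this part of the brain.

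When RNA polymerase II passes a polyadenylation signal, the new RNA is cut and a poly(A) tail is added at the cut. Most genes hold several such sites, and the choice among them, known as alternative polyadenylation (APA), sets where the transcript ends. A site far from any annotated transcript can mark the end of a noncoding RNA, an end of a known gene that the annotation does not yet reach, or a stretch of genomic A bases at which the oligo(T) step captured RNA, and these kinds were not told apart here.

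Whole transcriptome termini site sequencing (WTTS-Seq) starts from the poly(A) tail, so that each read marks 1 site on 1 strand. The deposited value is a normalized count, the reads on a site divided by the size factor of its library, and the reads were recovered from the steps between values. Libraries had 1159811 to 3706778 reads on sites. Air control 4 was the shallowest and lacked a read on 26.13% of all sites, against 3.32% to 16.95% in the other libraries. Of 12 genes known to mark the hypothalamus 11 had a site, and their summed normalized count was 4551 to 6604 in the air controls and 8788 to 11136 in the cannabis libraries. The vasopressin gene Avp had a mean of 1952 in the air controls and 4934 in the cannabis libraries. It alone among these 11 genes had no overlap of groups, with 1054 to 3082 against 3278 to 6314. The part of this list in the results on unassigned sites was not tested. Choroid plexus markers summed to 3.97 to 26.3 in the air controls and 11.2 to 43.8 in the cannabis libraries, and 4 of 6 had a site. Anterior pituitary markers summed to 128 to 824 and 203 to 703, with 5 of 7 having a site and growth hormone and prolactin having none under the symbols Gh1 and Prl.

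Unassigned sites took a smaller share of the reads than of the sites. They held 2891458 of 20734916 reads over all libraries (13.9%). The share was 15.4%, 14.7%, 13.7% and 16.1% in air controls 1 to 4 and 15.0%, 12.6%, 14.4% and 12.1% in cannabis libraries 1, 2, 3 and 5. The group means were 15.0% ± 1.02 and 13.5% ± 1.42 (SD, n = 4 each), so that the cannabis mean was lower by 1.46 percentage points, and the groups overlapped. The difference was within the spread between libraries (two-sided exact permutation test, p = 0.171, where the smallest p this design allows is 0.0286). In bulk tissue, fewer cells of a type and less RNA per cell cannot be told apart. Without the 20 most read unassigned sites the difference was -1.06 points (exact permutation p = 0.143).

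**Figure D1:**
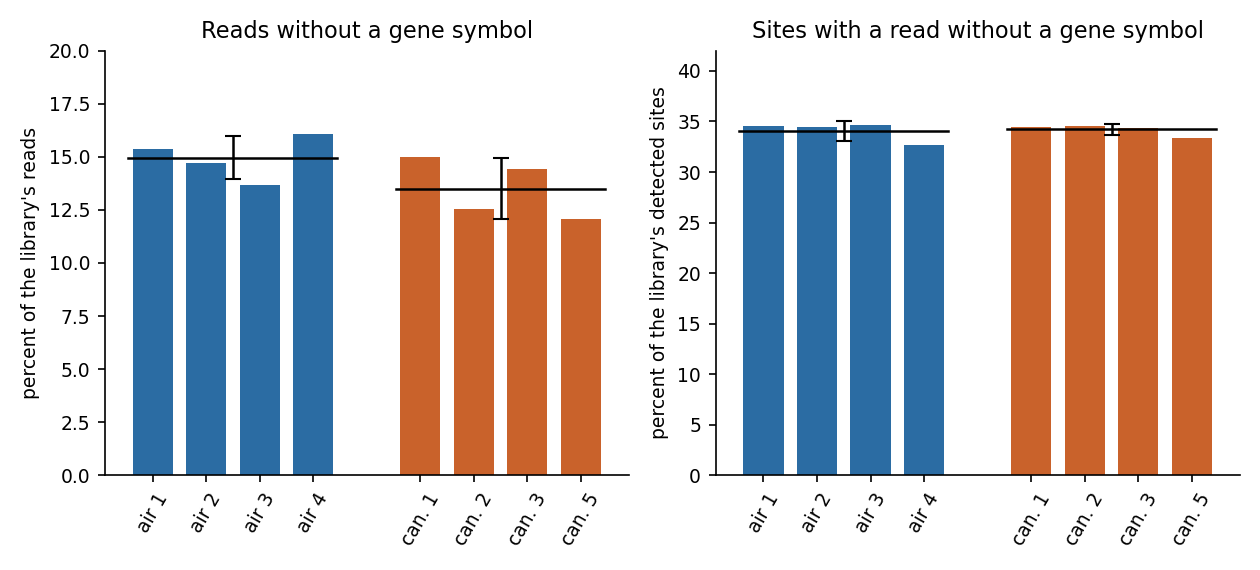
Share of unassigned sites in each library, as percent of reads (left) and as percent of the sites with at least 1 read (right). Bars are libraries (blue, air control; orange, cannabis, written can.), horizontal lines are group means and error bars are 1 SD over 4 libraries. The share of reads runs from 12.1% to 16.1% with overlapping groups, and the share of detected sites stays between 32.6% and 34.7%.

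The share of unassigned sites among the sites that had a read in a library varied less. This share has little room to move, since 34.6% of the listed sites are unassigned and each library had reads on most sites. It was 34.1% ± 0.956 in the air controls and 34.2% ± 0.544 in the cannabis libraries (SD, n = 4 each), a difference of 0.15 points (exact permutation p = 0.857). The lowest shares were 32.6% in air control 4 and 33.4% in cannabis 5, and the other 6 libraries lay between 34.4% and 34.7%. When all libraries were brought to the depth of air control 4 by the rarefaction formula, the difference was -0.27 points (exact permutation p = 0.571). At that depth cannabis 5 had the lowest share, 31.8%, below the 32.6% of air control 4, and the other 6 libraries had 33.5% to 33.8%. Air control 4 lacked a read on 30.3% of unassigned sites and 23.9% of gene sites. In cannabis 5, which had 3050102 reads, these shares were 12.2% and 7.34%.

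An unassigned site had fewer reads than a gene site, mainly among the well read sites. The median total over the 8 libraries was 28 reads for an unassigned site and 38 for a gene site, while the means were 84.9 and 277 reads. Every site in the files has at least 16 reads in total, and 2321 unassigned sites (6.82%) and 3124 gene sites (4.86%) had exactly that number. At the upper end, 1 in 100 unassigned sites had more than 919 reads and 1 in 100 gene sites more than 3654. Within each library the mean gene site had 2.76 to 3.86 times the reads of the mean unassigned site. This ratio was 3.02 ± 0.246 in the air controls and 3.42 ± 0.417 in the cannabis libraries (SD, n = 4 each, exact permutation p = 0.171).

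The share of unassigned sites went down with each class of reads. Among sites at the minimum of 16 reads 42.6% were unassigned, and among those with 17 to 31 reads 40.5%. The share was 25.1% from 128 to 255 reads, 11.0% from 1024 to 4095 reads and 7.25%, or 43 of 593 sites, from 4096 reads up. No unassigned site was among the 10 most read sites of the hypothalamus, 7 were among the 100 most read and 78 among the 1000 most read. A mean of at least 1000 normalized counts was reached by 15 unassigned sites and 197 gene sites.

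**Figure D2:**
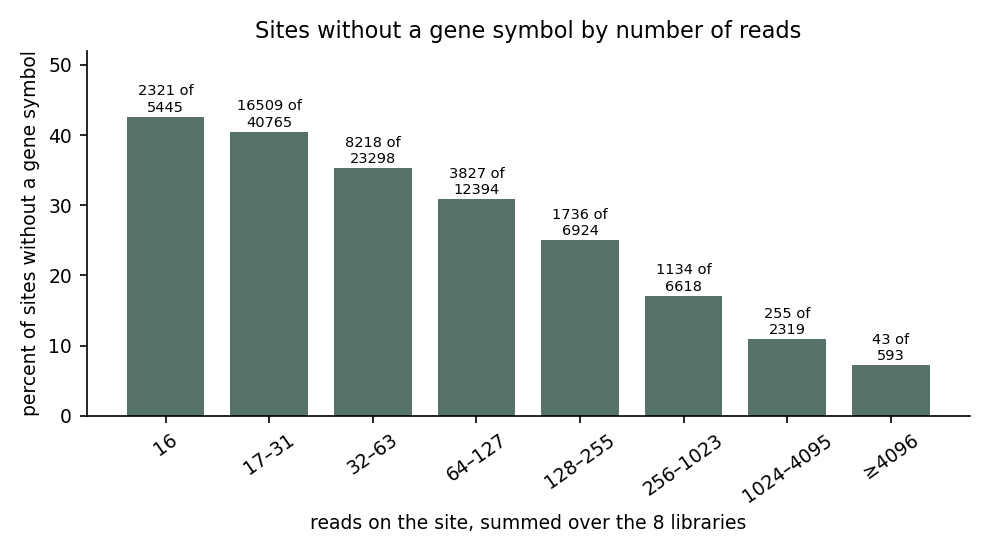
Percent of sites without a gene symbol (y axis) in classes of reads summed over the 8 libraries (x axis), with the number of unassigned sites and of all sites above each bar. The share goes from 42.6% at 16 reads to 7.25% at 4096 reads or more.

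Unassigned sites, which had fewer reads, were also seen in fewer libraries, and this was not examined at equal reads. Reads in all 8 libraries were found for 14899 of them (43.8%) and for 34902 gene sites (54.3%). Reads in at most 3 libraries were found for 105 unassigned sites, 13 of which had reads in a single library. When 16 reads were required within 1 library, 8049 unassigned sites (23.6%) and 24163 gene sites (37.6%) remained. The reads were a little less concentrated than those of gene sites, since the 20 most read unassigned sites held 12.6% of the reads on such sites and the 20 most read gene sites 18.1%.

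Among well read sites, unassigned sites varied more between libraries than gene sites. Sites are not replicates, so this is a description of 359 unassigned and 2971 gene sites with a mean of at least 100 normalized counts. With 1 added to each normalized count, the highest library was 3.23 times the lowest at the median unassigned site and 2.24 times at the median gene site. At means from 100 to 300 these ratios were 3.43 and 2.31, and at means over 300 they were 3.06 and 2.14. A single library held over 30% of the summed normalized count at 28 of the 359 unassigned sites and at 60 of the 2971 gene sites. Fewer than 3 reads in at least 1 library were found at 5 unassigned sites (1.39%) and 4 gene sites (0.135%). The highest library was air control 4 at 89 unassigned sites (24.8%) and at 417 gene sites (14.0%), and cannabis 2 at 62 (17.3%) and 821 (27.6%).

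Positions on the Rnor_6.0 assembly were read for 301 unassigned sites (0.884%) from the parts of the study's site tables used here. These parts hold the 1960 most read sites and sites selected for the cannabis contrast, and the positions of the other unassigned sites were not analysed here. All of them were in Cuffcompare class u, the class of transcripts that touch no reference transcript. Among the 1960 most read sites, 180 were unassigned, 94 on the plus and 86 on the minus strand. The clusters of read ends had a median width of 317 bases (interquartile range 193 to 420) on the plus strand and 28 bases (10.25 to 44) on the minus strand. The same split was found in gene sites, with medians of 293 and 39 bases. Clusters of at most 5 bases made up 15 of the 86 minus-strand unassigned sites (17.4%) and 11 of 900 minus-strand gene sites (1.22%).

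Only a few of the most read unassigned sites lay shortly after a gene site listed in these parts. Of the 180 sites 173 had a listed gene site upstream on the same strand, at a median distance of 2374998 bases, and 123 were over 1 Mb away. The parts used here hold a small share of all gene sites, so these distances are upper limits. A listed gene site lay within 10 kb of 7 of them. The site of rank 400 by reads, on chromosome 7 at 121337690 to 121338103 of the plus strand, was 1528 bases past a site of Syngr1, which encodes a synaptic vesicle protein. Its normalized count was 697, 557, 667 and 465 in air controls 1 to 4 and 374, 650, 688 and 720 in cannabis libraries 1, 2, 3 and 5, with values of the groups interleaved. The site was lowest in cannabis 1 and, among the controls, in air control 4. Shortly after sites of Letm1 (1538 bases), Nat8l (2866), Rps4x (3096), Pacsin1 (6260) and Tmod2 (8505) lay 5 more of the 7, and the remaining one is not reported here. Among these 5, limma gave P of 0.0411 for the site after Rps4x and 0.488 to 0.923 for the others. Nat8l makes the neuronal metabolite N-acetylaspartate, Rps4x is a ribosomal protein gene, and Tmod2 encodes a neuronal tropomodulin.

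The most read unassigned site, of rank 11 among all sites, lay on the plus strand of chromosome 2 at 217328933 to 217329471 and had 88207 reads. Its normalized count was 13713, 11039, 8528 and 19184 in air controls 1 to 4 and 13387, 4538, 9266 and 8324 in cannabis libraries 1, 2, 3 and 5. The mean was 13116 ± 4566 in the air controls and 8879 ± 3634 in the cannabis libraries (SD, n = 4 each), with overlapping ranges. The log2 difference, cannabis minus air, was -0.60 ± 0.25 (SE), with P = 0.0246 in limma, adjusted P = 1.00 and exact permutation p = 0.200. The nearest listed gene site upstream was that of Lamtor5, at 7289483 bases.

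Ranks 21 and 86 were neighbours on the minus strand of chromosome 1, at 221157961 to 221158305 and 221158580 to 221158644, and the positions given for them were 518 bases apart. Site 21 had 4444, 6227, 2934 and 12597 normalized counts in the air controls and 11546, 2988, 2900 and 5148 in the cannabis libraries. Site 86 had 953, 1196, 3125 and 818 in the air controls and 596, 2615, 1938 and 2278 in the cannabis libraries. Site 21 was thus highest, and site 86 lowest, in air control 4 and cannabis 1. Site 21, the more downstream of the pair, held 82.3%, 83.9%, 48.4% and 93.9% of their sum in the air controls and 95.1%, 53.3%, 59.9% and 69.3% in the cannabis libraries. The mean share was 77.1% ± 19.8 in the air controls and 69.4% ± 18.3 in the cannabis libraries (SD, n = 4 each, exact permutation p = 0.543). Their sum was 8074 ± 3660 and 7502 ± 3279 (exact permutation p = 0.743). Neither measure differed beyond the spread between libraries, and both varied within each group by more than the groups differed.

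**Figure D3:**
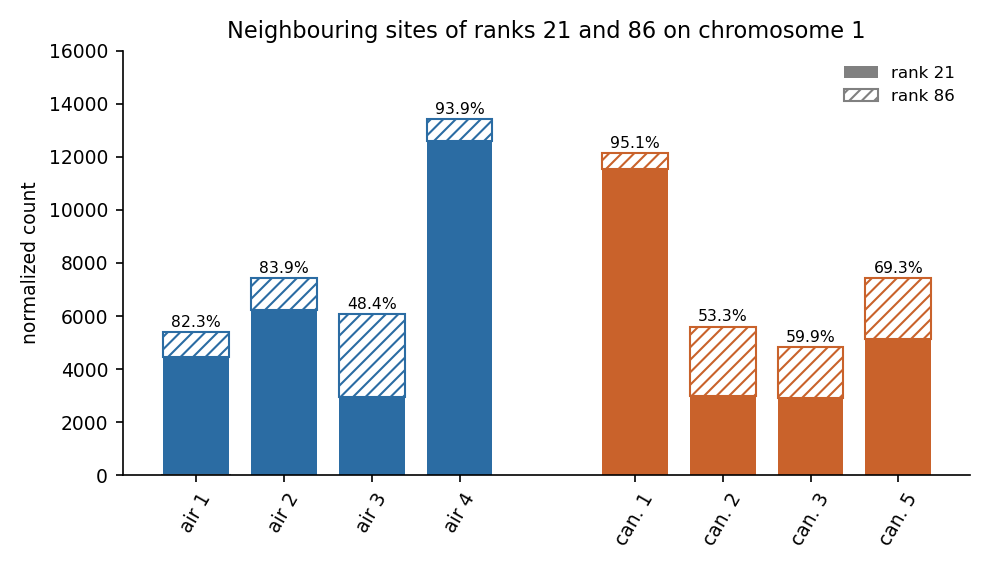
Normalized counts (y axis) of the neighbouring unassigned sites of rank 21 (filled) and rank 86 (hatched) in each library (x axis; blue, air control; orange, cannabis, written can.), with the percent of their sum on rank 21 above each bar. The share of rank 21 runs from 48.4% in air control 3 to 95.1% in cannabis 1.

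Of 12 noncoding RNAs that brain tissue is known for, Miat, Snhg11 and Gas5 (3 of 12) were symbols in the files, and the sites of these 3 summed to 1376 to 1944 normalized counts in the air controls and 1453 to 1821 in the cannabis libraries.

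On the plus strand of chromosome 6 lay 4 unassigned sites over 17843 bases, of ranks 101, 454, 600 and 137. The first of them was 42339 bases past a site of the microRNA gene Mir1188. In GRCr8, 178 genes lie between Mir1188 and Dio3, among them 84 snoRNA and 44 microRNA genes and 5 long noncoding RNA genes. This is the imprinted Dlk1-Dio3 domain, known for long noncoding RNAs read from the maternal chromosome. This neighbourhood was singled out after the values were seen. The summed normalized count of the 4 sites was 5359, 4985, 2696 and 6117 in the air controls and 7645, 2241, 4562 and 2621 in the cannabis libraries. The means were 4789 ± 1473 and 4267 ± 2470 (SD, n = 4 each, exact permutation p = 0.686), with overlapping groups.

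Within this group the sites did not vary alike. Site 600 was even, at 381 to 505 normalized counts in the air controls and 433 to 510 in the cannabis libraries. Site 137 had 2341, 1607, 667 and 3263 in the air controls and 3218, 322, 1465 and 628 in the cannabis libraries, a 10.1-fold range. The high libraries of site 137 were air control 4 and cannabis 1, and the lowest was cannabis 2. Its log2 difference was -0.77 ± 0.50 (SE, limma P = 0.136, adjusted P = 1.00, exact permutation p = 0.429).

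The next most read site, of rank 35 on the plus strand of chromosome 2 at 548916 to 549091, was carried by a pair of libraries. It had 15272, 581, 111 and 310 normalized counts in the air controls and 617, 377, 5555 and 1214 in the cannabis libraries. Air control 1 alone held 63.5% of the summed normalized count. The mean was 4068 ± 7472 in the air controls and 1941 ± 2435 in the cannabis libraries (SD, n = 4 each). The log2 difference was 0.59 ± 0.95 (SE, limma P = 0.541, adjusted P = 1.00, exact permutation p = 0.971), opposite in sign to the difference of the means. Without air control 1 it was 2.04 and limma called the site, and without air control 3 it was -0.32.

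Among the 20 most read unassigned sites, ranks 11 to 310, the log2 difference was from -1.32 to 0.59, and 14 sites were lower and 6 higher in cannabis. For comparison, 51.99% of all unassigned sites and 47.5% of gene sites were lower. The groups overlapped at each of the 20. Among all unassigned sites the groups did not overlap at only 2.09%, so 20 sites are too few to show a departure from that share. The ratio of the highest to the lowest library was from 1.49 to 138, with a median of 4.29, and the highest library was air control 4 at 8 sites and cannabis 1 at 5 sites. The most even was site 182, on chromosome 4 at 82086862 to 82087344, with 1137 ± 137 normalized counts in the air controls and 1115 ± 212 in the cannabis libraries (SD, n = 4 each). Next came site 224 on chromosome 17, site 81 on chromosome 5 and site 67 on chromosome 17, with highest-to-lowest ratios of 1.69, 1.82 and 1.86.

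Of these 20 sites 2 passed P under 0.01 in limma, both lower in cannabis, at a background of 0.381% of all sites. Most sites of that background were far less read. Of all sites with a mean of at least 10, the same fit called 0.451% lower and 0.126% higher. Site 221, a single base of the minus strand of chromosome 5 at 97538025, had 1198, 1047, 1162 and 2435 normalized counts in the air controls and 1279, 606, 765 and 154 in the cannabis libraries. Its highest value was in air control 4 and its lowest in cannabis 5, and cannabis 1 lay above 3 of the 4 controls. The log2 difference was -1.32 ± 0.43 (SE, limma P = 0.00544, adjusted P = 1.00, exact permutation p = 0.114). Site 239, on the plus strand of chromosome 2 at 76366080 to 76366505, had 1728, 1093, 710 and 1950 in the air controls and 1022, 587, 725 and 196 in the cannabis libraries. Here air control 3 lay within the range of the cannabis group, and the log2 difference was -1.23 ± 0.38 (SE, limma P = 0.0041, adjusted P = 1.00, exact permutation p = 0.0857). Neither kept P under 0.01 without air control 1, air control 4 or cannabis 5, and site 221 also lost it without cannabis 2. Neither was called in DESeq2 on the recovered reads, when limma took replicate numbers as blocks or when only sites with a mean of at least 10 were fitted, and site 221 was not called in edgeR. Without cannabis 5 the log2 differences were -0.71 and -0.75.

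**Figure D4:**
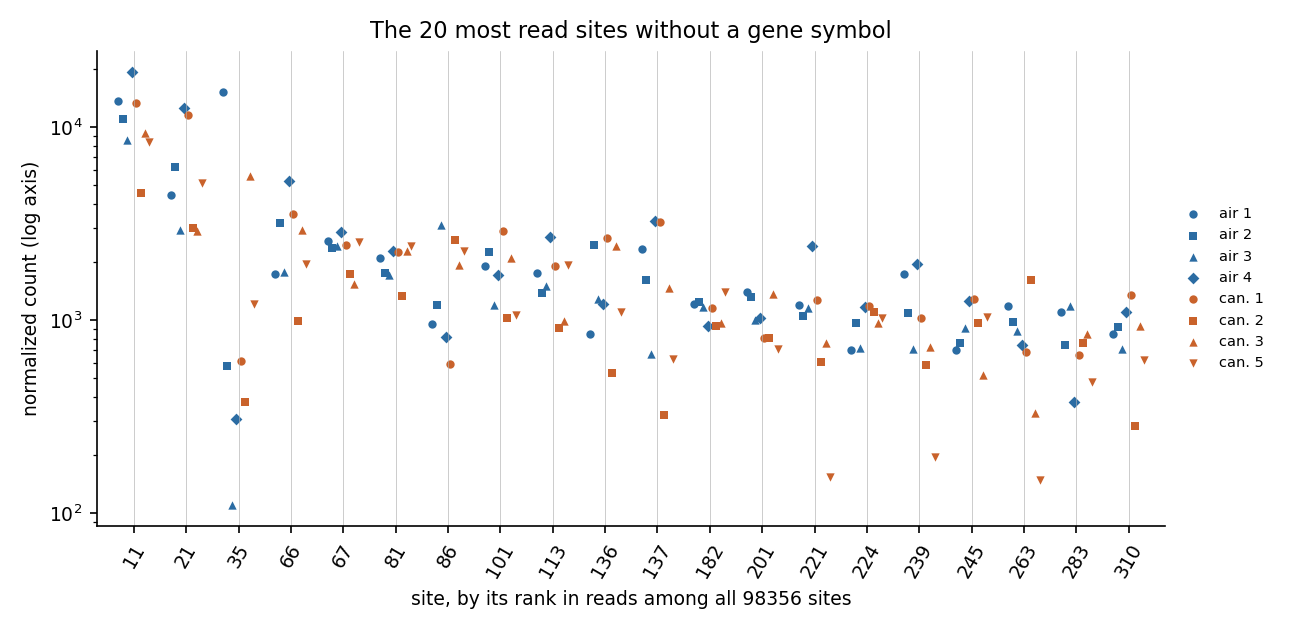
Normalized count on a log axis (y) of the 20 most read unassigned sites (x, by rank among all sites) in each library (blue, air control; orange, cannabis, written can.; marker shape, replicate). Groups overlap at every site, and rank 35 stands apart with 15272 in air control 1 and 5555 in cannabis 3.

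Over all unassigned sites, 160 of 34043 (0.470%) had P under 0.01 in limma. The 122 lower sites (0.358%) stood against a background of 0.258% of all sites, and the 38 higher sites (0.112%) against 0.123%. The background in both directions was 0.381%, and gene sites alone gave 0.334%. No unassigned site passed an adjusted P under 0.1, at a background of 0.00102% in limma and edgeR and 0.00408% in DESeq2, and the smallest adjusted P in limma was 0.439. At an unadjusted P under 0.05 limma gave 1204 unassigned sites (3.54%) at a background of 3.03%. Of these 811 were lower (2.38%, background 1.76%) and 393 higher (1.15%, background 1.27%). Values of the groups did not overlap at 419 unassigned sites (1.23%, background 1.01%) with lower values in cannabis. The same held for 294 (0.864%, background 0.992%) with higher values. Both directions together were 2.09% of the unassigned sites, at a background of 2.0%. By direction, the share of lower sites was above the background and that of higher sites below it under each of these unadjusted rules. Gene sites alone gave 0.205% lower and 0.129% higher sites at P under 0.01.

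The numbers of lower and higher sites changed with single libraries. Without air control 1 limma called 39 lower unassigned sites (0.115%, background 0.0915%) and 43 higher ones (0.126%, background 0.143%). Without air control 4 it called 77 lower (0.226%, background 0.189%) and 31 higher sites (0.0911%, background 0.114%). Without cannabis 5 there were 57 lower (0.167%, background 0.16%) and 24 higher (0.0705%, background 0.0712%). Without cannabis 1 there were 214 lower (0.629%, background 0.453%) and 33 higher (0.0969%, background 0.15%). Of the 122 lower sites of the full fit 77 had their highest value in air control 4, the shallowest library, and 36 in air control 1. Their part in the count beyond these values was not tested.

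A mean under 10 normalized counts was found for 105 of the 160 called sites (65.6%) and for 85.4% of all unassigned sites. The mean was at least 100 for 7 of the 160. Of the 4975 unassigned sites with a mean of at least 10, the full fit called 49 lower (0.985%) and 6 higher (0.121%), at backgrounds of 0.451% and 0.126% of all sites with such a mean. When only sites with a mean of at least 10 were fitted, 13 of these 4975 unassigned sites were called (0.261%), at a background of 0.199%. Of these 11 were lower (0.221%, background 0.149%) and 2 higher (0.0402%, background 0.0496%). On the recovered reads edgeR called 185 unassigned sites (0.543%, background 0.526%), 148 lower (0.435%, background 0.383%) and 37 higher (0.109%, background 0.142%). DESeq2 called 122 (0.359%, background 0.316%), of which 16 were higher (0.0471%, background 0.0673%) and the rest lower (0.312%, background 0.249%). With the replicate number as a block limma called 68 (0.200%, background 0.233%), 43 lower (0.126%, background 0.15%) and 25 higher (0.0734%, background 0.0824%). The share of lower sites was thus above the background in edgeR and DESeq2 and below it with the block. All 3 tools called 64 of the 160, and 17 kept P under 0.01 in limma whichever library was left out. Both counts start from sites already called in these data, and the matching counts for gene sites are not reported here. Neither count therefore sets unassigned sites apart from gene sites. The median log2 difference was -0.03 over unassigned sites and 0.01 over all sites.

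The 10 unassigned sites of smallest P with a mean of at least 10 were 9 lower and 1 higher in cannabis. Since they were chosen by P in these same libraries, their values, overlaps and leave-one-out fits are a description and no support. Of the 9 lower sites all had their highest value in air control 4. Groups did not overlap at 7 of the 10, and 9 kept P under 0.01 whichever library was left out, the exception being site 20313, which lost it without air control 4. Sites 20313, 20904, 21721, 23402 and 25436 were not called when only sites with a mean of at least 10 were fitted, and sites 21721 and 25436 were not called in edgeR or DESeq2 either. Sites 3635, 19877, 20313 and 23402 were not called with the replicate block.

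The smallest P belonged to site 2207, whose position was not analysed here. It had 186, 175, 199 and 810 normalized counts in the air controls and 13.7, 15.3, 5.90 and 144 in the cannabis libraries. All controls lay above all cannabis libraries, but cannabis 5 was close to the controls and far from the other 3. The log2 difference was -3.61 ± 0.66 (SE, limma P = 1.78e-05, adjusted P = 0.439, exact permutation p = 0.0286). The site also had P under 0.01 in edgeR and DESeq2. Sites 21721 and 25436, whose positions were not analysed here either, were likewise highest in air control 4 and lowest in cannabis 1, 2 and 3, at lower levels. Site 21721 had 12.4, 8.38, 13.4 and 53.6 in the air controls, no read in cannabis 1, 2 and 3, and 14.6, from 19 reads, in cannabis 5. Site 25436 had 10.2, 5.99, 11.4 and 45.7 in the air controls, 1 read in total over cannabis 1, 2 and 3, and 10.8 in cannabis 5.

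Site 3635 differed between the groups with the least spread. It lay on the plus strand of chromosome 5 at 56350436 to 56351054 and had 128, 120, 139 and 155 normalized counts in the air controls and 45.9, 72.4, 54.1 and 39.2 in the cannabis libraries. The means were 135 ± 15.2 and 52.9 ± 14.4 (SD, n = 4 each), and no values overlapped. The log2 difference was -1.37 ± 0.34 (SE, limma P = 0.000523, adjusted P = 1.00, exact permutation p = 0.0286).

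Site 16955, on the minus strand of chromosome 9 at 83993902 to 83993911, had 26.3, 14.4, 14.8 and 73.5 normalized counts in the air controls and 1.24, 2.66, 0.984 and 7.68 in the cannabis libraries. Its groups did not overlap (log2 difference -2.94 ± 0.60, SE, limma P = 6.84e-05, adjusted P = 0.747, exact permutation p = 0.0286). Site 6373, on the plus strand of chromosome 4 at 173590942 to 173591127, had 137, 75.4, 21.5 and 151 in the air controls and 16.1, 27.2, 9.84 and 0.768 in the cannabis libraries. Here air control 3 lay below cannabis 2, and the log2 difference was -2.98 ± 0.69 (SE, limma P = 0.000289, adjusted P = 1.00, exact permutation p = 0.0571). The higher site, 20904 on the minus strand of chromosome 10 at 57013324 to 57013341, had 2.92, 0, 1.34 and 7.94 in the air controls and 52.2, 9.96, 13.8 and 10.8 in the cannabis libraries. Cannabis 1 held 52.8% of its summed normalized count, and the lowest cannabis value was close to that of air control 4.

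The other 3 were site 19877 on the minus strand of chromosome 1 at 28759927 to 28759932, site 20313 on the plus strand of chromosome 11 at 51642775 to 51642987, and site 23402 on an unplaced scaffold. Their log2 differences were -2.17, -2.33 and -2.08. At each of them the groups did not overlap, with 98 reads in total on site 20313, of which 46 were in air control 4.

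**Figure D5:**
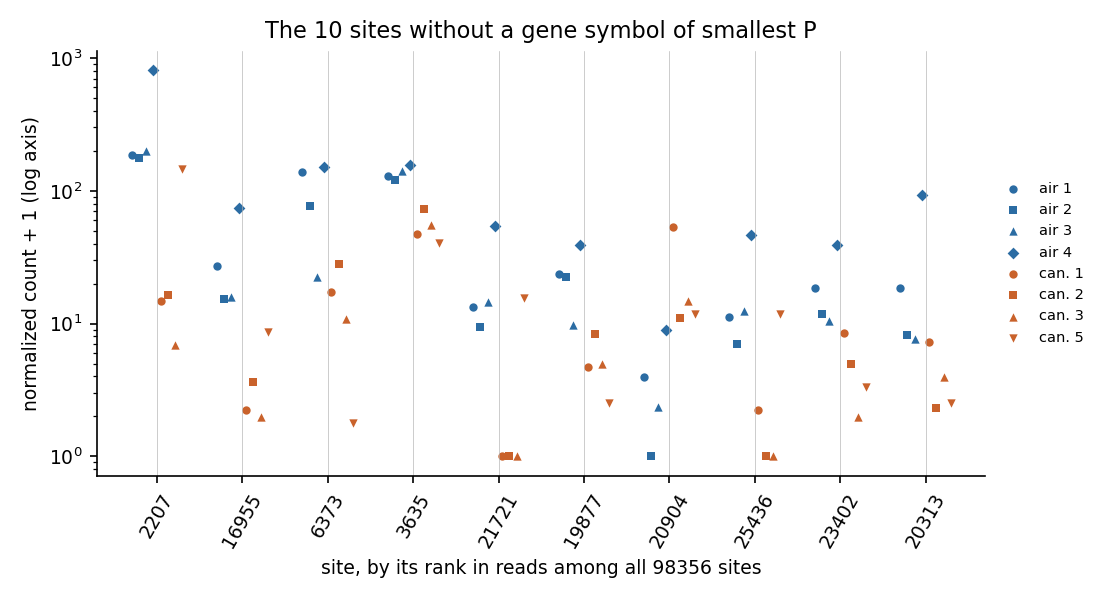
Normalized count plus 1 on a log axis (y) of the 10 unassigned sites of smallest limma P with a mean of at least 10, ordered by P (x, by rank in reads among all sites), in each library (blue, air control; orange, cannabis, written can.; marker shape, replicate). Air control 4 is the highest library at 9 sites, and cannabis 5 lies apart from the other cannabis libraries at ranks 2207, 21721 and 25436.

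A few well read unassigned sites were close to absent in single libraries, with near-absent libraries in both groups. Site 2454 had 145, 237, 0.671 and 332 normalized counts in the air controls and 360, 45.8, 0.984 and 217 in the cannabis libraries. Site 3150 had 124, 195, 0 and 270 in the air controls and 287, 27.2, 0 and 157 in the cannabis libraries. Site 3265 had 114, 136, 0.671 and 467 in the air controls and 207, 29.2, 0 and 147 in the cannabis libraries. All 3 were near 0 in air control 3 and cannabis 3 and low in cannabis 2. Site 372, on the minus strand of chromosome 1 at 162673360 to 162673362, was likewise lowest in air control 3 and cannabis 3, with 683, 1074, 2.01 and 2310 in the air controls and 1752, 211, 2.95 and 817 in the cannabis libraries. Air control 3 was among the deeper libraries, with 3399252 reads on sites.

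Sites 2727 and 3132 were near absent in 1 library each. Site 2727 had 3.97 normalized counts in air control 4, from 2 reads, and 86.3 to 171 in the other 7 libraries. Site 3132 had 0.768 in cannabis 5, from 1 read, and 107 to 220 in the other 7. These 6 sites were singled out after their values were seen, and limma P was from 0.0833 to 0.797 for them.

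Among unassigned sites with a mean of at least 100, sites 2123, 3603 and 3026 had, besides sites 35 and 2207, the largest share of their summed normalized count in a single library. The positions of these 3 were not analysed here. Site 2123 had 621, 107, 98.0 and 27.8 normalized counts in the air controls and 67.1, 95.7, 74.8 and 2.30 in the cannabis libraries, with 56.8% of the sum in air control 1. Site 3603 had 81.1, 67.0, 41.0 and 526 in the air controls and 91.9, 25.9, 43.3 and 131 in the cannabis libraries. Site 3026 had 76.0, 76.6, 51.0 and 592 in the air controls and 114, 16.6, 26.6 and 228 in the cannabis libraries. The last 2 were highest in air control 4, which held 52.3% and 50.1% of the sum, and cannabis 5 came next at both. Limma gave P of 0.0553 for site 2123, 0.211 for site 3603 and 0.183 for site 3026.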

How the data were processed

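WTTS-Seq was run on hypothalamic RNA of 8 rats, 4 per group. Low-quality reads were removed by the authors (FASTX Toolkit), who then trimmed leading Ts, kept reads of at least 16 nt, aligned them with TMAP 3.4.1 to Rnor_6.0, clustered read ends, kept sites with at least 16 reads and annotated them with Cuffcompare 2.2.1. The values the authors deposited are a signal per site, a normalized count, for which reads were divided by each library's DESeq2 size factor. The 8 files were joined by row, and reads were recovered by dividing each value by that of 1 read, with all values within 0.00012 of a whole number. Rows are in order of total reads, and a site's rank is its row. Reads per library set the precision, and no molecular identifiers are stated. All 98356 sites were fitted with limma 3.58.1 (R 4.3.3; lmFit, and eBayes with a trend) on log2(normalized count + 1), a scale that understates the change of low sites, with Benjamini-Hochberg adjustment. A site was called at P under 0.01. Single values had two-sided exact permutation tests of 4 against 4 libraries. P-values measure the spread between these libraries, since the labels do not say more on how the replicates relate.

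Alternatives were a pseudocount of 0.5 or 5, only sites averaging at least 10, equal totals, edgeR 4.0.16 and DESeq2 1.42.0 on the recovered reads, P under 0.05, the replicate number as a block and each library left out. Some items under these rules are not reported here. Named sites are the 20 most read, the 10 of smallest P with a mean of at least 10, the 5 of smallest P of all, and the 5 with a mean of at least 100 and the largest share in 1 library. Other sites named in the text were added after their values were seen. The members and lists were chosen with earlier results of these data known. Positions came from the parts of the study's site tables used here, matched by symbol and the 8 values. Gene order came from RefSeq (GRCr8), and none of its coordinates were used. The other steps ran in Python 3.11.15 (scipy 1.17.1, pandas 2.3.3, numpy 2.4.6; plots with matplotlib 3.10.9). No sequences are shown, since no genome of the files' build was used here.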

Additional observations from a re-analysis of the deposited data

Results flagged for a closer look

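Among 84 groups of 4 libraries examined, 20 held a library far from the other 3, where the gap to the nearest library over the whole range passed Dixon's critical value. Chance alone gives about 1 in 20 groups where values are normally distributed, but site values were taken here as normalized counts, not as logs. Many of these groups also belong to sites chosen by P, for a large share in 1 library or after their values were seen. The count therefore cannot be read against that rate. Of the 20, 8 were air control 4, the shallowest library, and 4 were cannabis 5.

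Air control 4 stood high at site 221 (2435 normalized counts against 1047 to 1198), site 2207 (810 against 175 to 199), site 3026 (592 against 51.0 to 76.6), site 3603 (526 against 41.0 to 81.1), site 20313 (91.4 against 6.71 to 17.5), site 21721 (53.6 against 8.38 to 13.4) and site 25436 (45.7 against 5.99 to 11.4). Its share of unassigned sites among detected sites was low, at 32.6% against 34.4% to 34.7%. Cannabis 5 stood high at site 2207 (144 against 5.90 to 15.3), site 21721 (14.6 against 0) and site 25436 (10.8 against 0 to 1.24), and low in the share of unassigned sites among detected sites, at 33.4% against 34.4% to 34.6%.

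Air control 1 stood high at site 35 (15272 against 111 to 581) and site 2123 (621 against 27.8 to 107). Air control 3 stood high at site 86 (3125 against 818 to 1196). Cannabis 3 stood high at site 35 (5555 against 377 to 1214) and site 201 (1370 against 707 to 809). Cannabis 1 stood high at site 454 (1090 against 422 to 501) and site 20904 (52.2 against 9.96 to 13.8). Cannabis 2 stood low at site 81 (1333 against 2249 to 2426).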

How the results depend on the processing

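The difference in the share of reads kept its direction in every alternative run, from -1.96 to -0.61 points, with exact permutation p from 0.114 to 0.75. That in the share of detected sites turned to -0.27 at equal depth, and from -0.33 (without air control 4) to 0.42 with 1 library left out. The count of 160 called sites (122 lower, 38 higher) was 13 (11 and 2) when only sites with a mean of at least 10 were fitted. At those same sites the full fit had called 55 (49 and 6), so the drop is not only one of fewer sites tested. The count was 1204 (811 and 393) at P under 0.05. With 1 library left out it was 81 (without cannabis 5, 0.238%, gene sites 0.227%) to 247 (without cannabis 1, 0.726%, gene sites 0.540%). Lower sites were 39 (without air control 1, 0.115%, gene sites 0.0793%) to 214 (without cannabis 1, 0.629%, gene sites 0.361%). Higher sites were 24 (0.0705%, without cannabis 2, gene sites 0.0917%, or cannabis 5, gene sites 0.0715%) to 71 (without air control 3, 0.209%, gene sites 0.258%). DESeq2 gave 16 higher sites, and no P for 67 unassigned sites. An adjusted P under 0.1 was passed by 2 unassigned sites of 5 sites in all without cannabis 5, and by 2 of 7 with the replicate block. Same-numbered libraries did not deviate together (correlations -0.23, 0.08 and -0.0030), so the replicate block joins only equal numbers. It left 68 sites (43 and 25), and air control 4 and cannabis 5, whose numbers have no partner, add nothing to it. Of the 33 sites named by rule, some changed the sign of their log2 difference. With the block, this held for site 21 (0.10), site 66 (0.017), site 86 (-0.079) and site 101 (0.093), and 6 called sites lost P under 0.01 with it. In edgeR it held for site 35 (-1.02), site 101 (0.033) and site 182 (0.00024), and in DESeq2 for site 101 (0.0043). Leaving out 1 library gave -0.67 to 0.14 at site 21, -0.32 to 2.04 at site 35, -0.59 to 0.022 at site 66, -0.041 to 0.25 at site 81, -0.39 to 0.11 at site 101, -0.25 to 0.52 at site 136, -0.15 to 0.038 at site 182, -0.13 to 0.30 at site 245, -0.69 to 0.055 at site 310 and -1.21 to 0.0027 at site 3603. The causes of these changes were not tested. With 4 libraries a group and a median of 28 reads on an unassigned site, small differences were not detectable at this depth.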
